A study of Mus musculus with 28 samples.

Results

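The comparison described here set CD4+ T cells of B6.Sle1b mice after 24 h on anti-CD3 against unstimulated CD4+ T cells of the same strain, with 3 arrays in each group and across all genes. The members were chosen by the strain and the time in the labels, and they make up 6 of the 28 arrays of the series. The RNA came from splenic CD4+ T cells, taken in total from females aged 12 weeks, and was hybridised to an Affymetrix HT MG-430 PM array. B6.Sle1b carries a stretch of chromosome 1 linked to lupus on the C57BL/6 background, and the stretch covers the SLAM family of lymphocyte surface receptors. The activated cells had been kept in complete RPMI medium in U-bottom plates coated with the CD3 antibody 145-2C11 at 0.1 µg/ml. The labels do not say how long the unstimulated cells had been in culture.

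Further arrays served for side comparisons. They were the 3 arrays of B6.Sle1b at 4 h of anti-CD3, and the unstimulated and 24 h arrays of C57BL/6 (labelled WT; 3 and 2 biological arrays) and of Sle1b.BACSlamf6-H1 (3 and 3). The last strain, written Sle1b.BAC below, is B6.Sle1b with an added bacterial artificial chromosome named for Slamf6-H1, so both Sle1b strains share the chromosome 1 stretch. The labels call the replicates biological without saying whether each was a separate mouse, so the p-values below rest on a spread between arrays that may be technical in part.

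A CD3 antibody binds the signalling chains of the T cell receptor and starts kinase and calcium signals that switch on transcription factors within minutes to hours. Over the following day a resting T cell normally enlarges into a blast: it makes ribosomes, takes up glucose and amino acids, secretes interleukin-2 and other cytokines, and copies its DNA before dividing. Homing receptors and regulators that hold a resting cell in quiescence are usually turned down over the same time. Cell size and division were not measured here.

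Genes that are named because they complete a small count were chosen after their values were seen. Values are log2 intensities of 1 probe set per gene, with no unit beyond the array scale, and the levels of different probe sets cannot be set against each other. A gene was called when its Benjamini-Hochberg adjusted p from limma, over all 17097 genes tested, was under 0.05. Of these, 2529 genes (14.8%) were called higher at 24 h than in unstimulated cells and 2290 (13.4%) were called lower, together 28.2%. These shares are the background for every count of list members called at 24 h below. At least a 2-fold difference was called for 1028 higher genes (6.01%) and 1088 lower genes (6.36%), at least 8-fold for 35 and 62, and at least 32-fold for 5 and 1. The median difference over all genes was 0.07 on the log2 scale. Scaling each array to its 75th percentile moved that median to 0.28 and the share of higher genes among those called from 52.5% to 64.3%, so small differences depend on the scaling. Sizes also depend on the probe set: averaging all probe sets of a gene brought 41 of the 203 called genes of the naming rule closer to 0 by over 1.5 times on the log2 scale. The averaged value is given below for only some of them.

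Within the 6 arrays the 75th percentile of intensity was 47.0, 53.3 and 35.6 unstimulated and 39.8, 40.6 and 35.6 at 24 h, so replicate 3 was dim in both groups. With replicates 1 and 2 of B6.Sle1b alone, 2242 genes were called higher and 2319 lower. All 9 T cell lineage markers tested stood above background, the 95th percentile of non-specific control probe sets, on every array of both groups. Their summed intensity ran from 11210 to 11800 unstimulated and from 7640 to 8531 at 24 h, and 4 of the 9 were called lower (Cd2, Cd28, Cd3d and Cd247, from -1.26 to -0.43) and Thy1 higher (0.47 ± 0.12). In bulk RNA, fewer cells of a type and less RNA per cell cannot be told apart. Of the 2 CD8 T cell markers Cd8a lay near background in both groups, whereas Cd8b1 was above it on every array (5.34, 5.49 and 5.13, then 4.80, 5.09 and 4.66) and was not called.

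Markers of other cells were also present, and their part in the results below was not tested. The summed intensity of 16 B cell markers was 1601 to 1769 unstimulated and 1512 to 1768 at 24 h, with Fcer2a called higher (3.04, 2.52 and 2.84, then 3.27, 6.13 and 4.22) and 4 lower, among them Ighm, the IgM heavy chain (-1.88 ± 0.38). The unstimulated mean of Fcer2a was at background, so its rise was at least 2.83-fold, and it was not called when only the groups compared were fitted (adjusted p = 0.0988). For 4 plasma cell markers the sum was 5822 to 7839 and then 1785 to 2448, with 3 called lower, among them Jchain, the joining chain of secreted antibodies (log2 difference -2.42 ± 0.38, standard error, limma adjusted p = 2.77e-05). The sum of 13 monocyte and macrophage markers was 182 to 246 and then 185 to 206, with Lyz2 called higher (1.66 ± 0.36) and Apoe lower (-2.13 ± 0.27). The sum of 6 dendritic cell markers was 105 to 144 and then 77.7 to 83.9, with Ccr9 called lower, and that of 12 neutrophil markers 174 to 658 and then 202 to 715. Of these, Lyz2, Csf1r, Cd14, Fcgr3, Fcgr1 and Apoe and the dendritic cell markers Itgax, Flt3, Zbtb46, Cd209a and Ccr9 were above background on all 6 arrays, and C1qb, Marco and Xcr1 were at background on average in both groups. Ccr9, also in the chemokine receptor list below, had the highest unstimulated mean of the 6 dendritic cell markers (6.04). Its fall (-1.55 ± 0.19) therefore weighs most in their sum. The other 5 were not called, with differences from -0.30 (Flt3) to 0.25 (Xcr1). The 4 NK cell markers summed to 107 to 153 and then 362 to 477, of which Eomes, which activated T cells also express, was the 1 member called. The 5 erythroid markers summed to 3526 to 4509 and then 1596 to 1994 with none called, but Hba-a1 (-1.19, adjusted p = 0.00106) and Car2 (-0.97, adjusted p = 0.00265) were called lower with strain and number as a fixed block. That block also called the monocyte marker Fcgr3 (-0.72, adjusted p = 0.00205) and the neutrophil marker Ltf (-0.52, adjusted p = 0.0436) lower. Among the 5 platelet markers, which summed to 60.9 to 101 and then 178 to 212, Pf4 (1.82 ± 0.35) and Itga2b (0.64 ± 0.17) were called higher.

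The largest rise was that of Ccl3. Ccl3, an inflammatory chemokine, measured 3.80, 3.36 and 2.54 on the unstimulated arrays, 8.73, 8.58 and 7.40 at 4 h, and 10.09, 9.58 and 8.74 at 24 h. Every 24 h array was above every unstimulated array, and replicate 3 was the lowest of its group at each time. The difference at 24 h was 6.23 ± 0.41 on the log2 scale, or 75.3-fold (adjusted p = 1.22e-10). Unstimulated replicate 3 read below the background of its array (3.06), so this size is not exact. Ccl4, a relative of Ccl3, rose by 4.49 ± 0.31.

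Crabp2, which carries retinoic acid inside cells, measured 3.05, 3.24 and 3.28 unstimulated, 3.68, 3.43 and 3.23 at 4 h and 9.27, 8.62 and 8.60 at 24 h. The 4 h arrays overlapped the unstimulated ones, and the 24 h arrays stood far above both. The rise at 24 h was 5.64 ± 0.19, or 50.04-fold (adjusted p = 6.78e-15). Its unstimulated values lay close to the background of those arrays (2.87, 3.02 and 3.06), so the fold is not exact. Pros1, the anticoagulant protein S, measured 2.81, 2.79 and 3.08 unstimulated, 5.41, 5.28 and 5.48 at 4 h and 8.06, 8.25 and 8.29 at 24 h. Its 3 groups did not overlap, and as its unstimulated mean was at background the rise was at least 37.1-fold.

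Gzmb, the protease granzyme B of cytotoxic granules, measured 6.84, 6.85 and 5.24 unstimulated, 7.54, 7.69 and 7.63 at 4 h and 12.01, 11.40 and 11.45 at 24 h. The groups did not overlap, and most of the rise came after 4 h: the difference was 5.31 ± 0.37 from unstimulated (39.7-fold, adjusted p = 3.05e-10) and 4.00 ± 0.37 from 4 h (adjusted p = 4.1e-08). Ccl22, a ligand of CCR4, read 3.21, 3.28 and 3.79 unstimulated, 3.83, 3.46 and 3.51 at 4 h and 8.85, 8.25 and 8.84 at 24 h. Only its 24 h arrays stood apart, 5.22 ± 0.18 above unstimulated.

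The other 9 of the 15 largest rises ran from 3.67 to 4.61. Cxcl9 (4.61 ± 0.41) is an interferon gamma-induced ligand of CXCR3 and Ccl1 (4.56 ± 0.30) the ligand of CCR8. Bcat1 (4.19 ± 0.21) starts the breakdown of branched-chain amino acids in the cytosol, and Srm (3.86 ± 0.33) makes the polyamine spermidine. Crtam (3.75 ± 0.34) is an adhesion molecule of activated T cells, Sema7a (3.67 ± 0.31) a membrane-anchored semaphorin, Nefh (3.86 ± 0.27) the heavy neurofilament chain and Hivep3 (3.73 ± 0.30) a large zinc finger protein. D630039A03Rik (4.12 ± 0.16) is known here by its clone name only. The rises of Bcat1, Hivep3 and Sema7a depended on the probe set: with all probe sets of a gene averaged they were 1.85, 1.13 and 1.82. Sema7a was higher at 4 h than at 24 h, with 8.77, 8.98 and 7.86 against 8.08, 7.87 and 7.34, but these arrays overlapped and the difference was not called.

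The largest fall was that of Ramp3, a partner protein of calcitonin-family receptors. It measured 10.74, 10.98 and 10.34 unstimulated, 9.995, 10.37 and 9.66 at 4 h and 4.15, 5.07 and 4.47 at 24 h. The 4 h arrays still reached into the unstimulated range, whereas every 24 h array was far below it, a fall of 69.9-fold (-6.13 ± 0.31, adjusted p = 3.13e-12). Rgs2, which shortens G protein signals, measured 11.01, 11.03 and 11.14 unstimulated, 9.95, 10.13 and 10.16 at 4 h and 6.46, 6.23 and 6.08 at 24 h. Its 3 groups stepped down without overlap, by 4.80 ± 0.17 in all (-4.80, adjusted p = 1.32e-14).

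Other leading falls ran from -4.51 to -3.79. They included Plagl1 (-4.51 ± 0.31), a zinc finger protein that restrains growth, the heat shock protein gene Hspa1b (-4.42 ± 0.29), and Pmaip1 (-3.99 ± 0.25), which encodes the death-promoting BCL2 relative Noxa. Dgat1 (-3.98 ± 0.26) completes triglyceride synthesis, Dusp1 (-3.93 ± 0.20) is a phosphatase of MAP kinases, and Fosl2 (-3.95 ± 0.37) is a subunit of the AP-1 transcription factor. Rsad2 (-3.91 ± 0.42), or viperin, is an antiviral protein induced by interferon. Ctla2b, C9orf72, Tsc22d1, the linker histone gene H1f2, the ESCRT-I gene Vps37b and Kctd12 completed the 15. With all probe sets averaged the falls of Plagl1 and Fosl2 were smaller, at -2.67 and -2.59. The plot of the leading genes by array shows that 4 h values lay between the other groups for many of them and on top of the unstimulated ones for others.

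**Figure D1:**
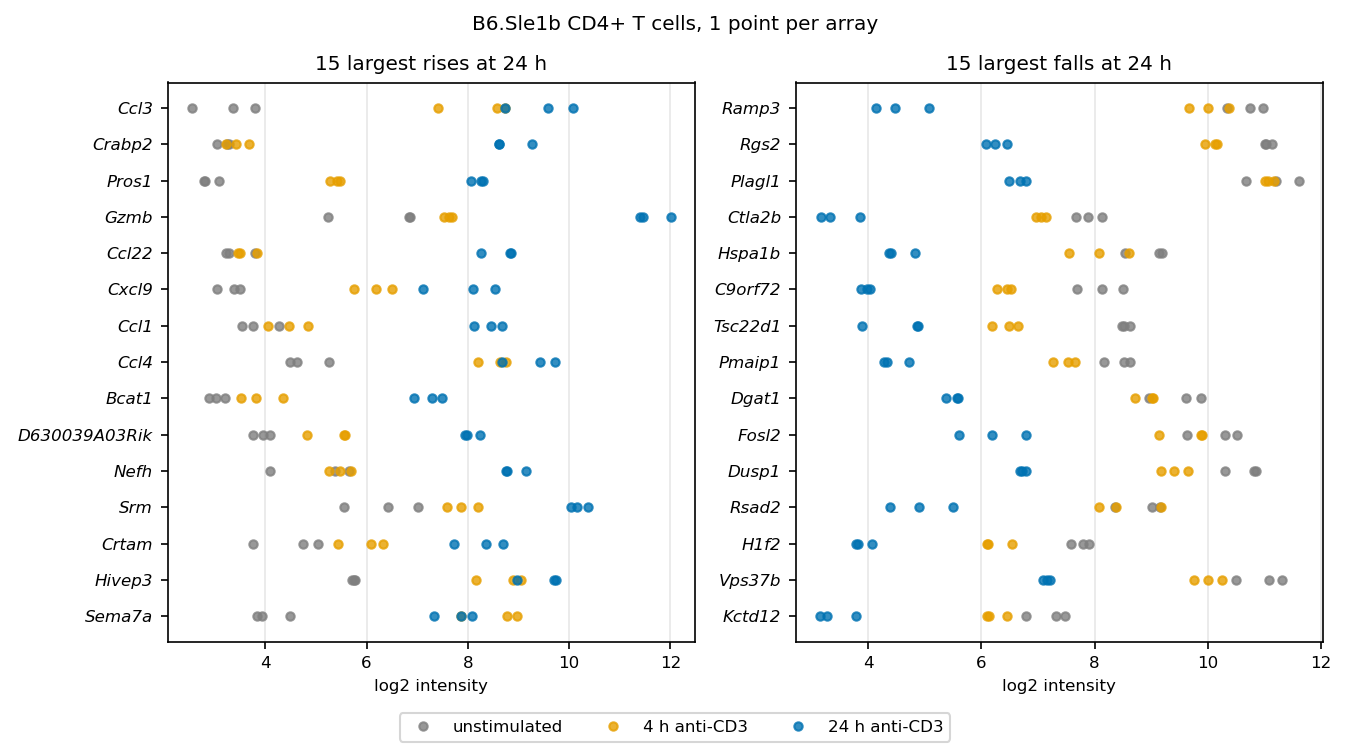
Log2 intensity on each array (horizontal axis, 1 point per array) for the 15 largest rises (left) and the 15 largest falls (right) in B6.Sle1b, with unstimulated, 4 h and 24 h arrays in grey, orange and blue. The blue points of every gene are apart from the grey ones, from Ccl3 (3.80, 3.36 and 2.54 to 10.09, 9.58 and 8.74) to Ramp3 (10.74, 10.98 and 10.34 to 4.15, 5.07 and 4.47).

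The lists of genes that serve cell growth and division were called higher far above the 14.8% of all genes. The replication list (MCM helicase subunits, origin factors, polymerases and clamp loaders) had 33 of 39 members called higher, 2 lower and a median of 1.57. The nucleotide synthesis list had 18 of 20 higher and none lower, with a median of 1.67, and the nucleolar ribosome biogenesis list 33 of 37 higher and none lower, with a median of 1.36. The mitosis list had 21 of 32 higher, 2 lower and a median of 1.06. Promoters of replication and mitosis genes are shown here because known cell cycle motifs, the E2F site and the CHR, lie in them.

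Sequences and positions are those of RefSeq on GRCm38.p6, from 250 bases before to 50 bases after the start of the gene, on the gene's strand. The promoters of Mcm5 (chr8:75109259-75109558, plus strand) and Mcm6 (chr1:128359656-128359955, minus strand), which encode subunits of the replicative helicase, hold 2 and 3 E2F matches. Capitals mark TTTCGCG or TTTGGCG on either strand, and neighbouring matches overlap into 1 run.
Mcm5: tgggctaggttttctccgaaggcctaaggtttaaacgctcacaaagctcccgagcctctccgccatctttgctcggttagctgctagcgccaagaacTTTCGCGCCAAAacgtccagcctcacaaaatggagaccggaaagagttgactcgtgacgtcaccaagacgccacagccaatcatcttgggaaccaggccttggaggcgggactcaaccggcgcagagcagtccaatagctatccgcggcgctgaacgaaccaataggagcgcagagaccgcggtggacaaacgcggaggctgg
Mcm6: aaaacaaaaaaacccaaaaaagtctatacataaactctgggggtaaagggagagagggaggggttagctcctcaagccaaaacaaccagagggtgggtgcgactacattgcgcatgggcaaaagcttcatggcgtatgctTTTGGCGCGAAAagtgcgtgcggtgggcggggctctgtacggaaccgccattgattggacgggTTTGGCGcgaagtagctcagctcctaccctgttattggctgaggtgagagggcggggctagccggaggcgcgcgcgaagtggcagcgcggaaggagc
The promoters of Top2a (chr11:99024140-99024439, minus strand), which encodes the topoisomerase that untangles chromosomes, and Cdk1 (chr10:69352863-69353162, minus strand), the kinase that starts mitosis, hold 2 matches each to the CHR. Capitals mark TTTGAA on either strand.
Top2a: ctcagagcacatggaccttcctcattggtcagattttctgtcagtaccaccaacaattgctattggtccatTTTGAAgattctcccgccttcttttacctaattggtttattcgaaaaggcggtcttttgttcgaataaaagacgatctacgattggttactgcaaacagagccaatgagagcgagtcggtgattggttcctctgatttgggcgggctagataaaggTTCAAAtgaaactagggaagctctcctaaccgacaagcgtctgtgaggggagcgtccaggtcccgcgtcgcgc
Cdk1: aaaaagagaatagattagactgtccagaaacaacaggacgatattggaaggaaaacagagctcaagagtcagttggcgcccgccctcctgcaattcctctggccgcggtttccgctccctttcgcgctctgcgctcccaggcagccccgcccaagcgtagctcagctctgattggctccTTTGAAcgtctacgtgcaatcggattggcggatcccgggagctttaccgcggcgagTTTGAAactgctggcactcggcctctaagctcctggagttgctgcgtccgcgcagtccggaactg

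Of 32 replication genes with a promoter in the table, 15 (46.9%) held an E2F match, against 3.9% of the 13605 tested genes with a promoter. Only 1 of 26 mitosis genes (3.85%) did. This was Cdk1, whose TTTCGCG is in lower case above, where only the CHR is marked. Of the 26, 20 (76.9%) held the CHR, against 15.6% of all. Members called lower at 24 h held the motifs too: Rpa1 (-0.45) had an E2F match, and Cenpa (-2.28) and Ndc80 (-0.50) had the CHR. The E-box CACGTG, a site of MYC and related factors, was in 7 of 32 nucleolar gene promoters (21.9%, against 10.2%). A match is a string of letters in a window and does not show that a factor binds there.

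Mcm5 and Mcm6, chosen for display after their values were seen, both rose. Mcm5 measured 7.32, 6.57 and 6.15 unstimulated, 6.88, 6.95 and 6.31 at 4 h and 9.54, 9.12 and 9.24 at 24 h, a rise of 2.62 ± 0.26 (adjusted p = 6.65e-08). Mcm6 measured 9.68, 9.22 and 8.9997, then 9.08, 8.90 and 8.92, and then 10.52, 10.37 and 10.39, a rise of 1.13 ± 0.18 (adjusted p = 3.55e-05). In both genes the 4 h arrays overlapped the unstimulated ones and the 24 h arrays were above all others. Of the members the naming rule picked, Gins1 (2.67 ± 0.24) and Gins2 (2.32 ± 0.17) belong to the GINS complex of the helicase, Cdc45 (2.37 ± 0.22) completes it, Prim1 (1.63 ± 0.11) makes the RNA primers, and Mcm7 rose by 1.40 ± 0.13. Rpa1, which coats single-stranded DNA (-0.45 ± 0.15, adjusted p = 0.0259), and Dbf4, which activates the kinase of replication origins (-0.77 ± 0.13), were the 2 members called lower, and are named for that reason.

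At 4 h the replication list had a median of -0.21 against unstimulated cells, and between 4 h and 24 h 35 of its 39 members were called higher (13.1% of all genes). The nucleotide genes moved alike, with a median of -0.0018 at 4 h and 17 of 20 called higher from 4 h to 24 h. Dctpp1, which clears modified deoxycytidine triphosphates, rose by 2.56 ± 0.23 in all, Dut, which removes dUTP, by 2.10 ± 0.20, the purine enzymes Ppat and Gmps by 1.51 ± 0.15 and 1.09 ± 0.12, and the pyrimidine enzyme Umps by 1.47 ± 0.15. With all probe sets of a gene averaged, Dut, Gmps and Umps rose less, by 1.30, 0.39 and 0.91, and Ppat by 1.65.

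In the mitosis list, Cdk1 measured 6.87, 5.71 and 6.64 unstimulated, 6.50, 5.80 and 6.29 at 4 h and 8.56, 8.09 and 8.37 at 24 h. The 24 h arrays were above all others and the earlier groups overlapped. It rose by 1.93 ± 0.30 (adjusted p = 2.14e-05) and Top2a by 1.77 ± 0.29. Aurkb, Bub1 and Bub1b, kinases of chromosome attachment and its checkpoint, rose by 2.02 ± 0.30, 2.02 ± 0.29 and 1.86 ± 0.23. Cenpa, the histone of centromeres, went the other way: 8.96, 9.12 and 8.39 unstimulated became 6.73, 6.54 and 6.35, a fall of 2.28 ± 0.21 with no overlap (-2.28, adjusted p = 1.98e-08). Ndc80 of the kinetochore was the other member called lower (-0.50 ± 0.16, named for that reason). The plot of growth and cell cycle genes over time shows most replication lines level or dipping at 4 h and rising by 24 h.

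**Figure D2:**
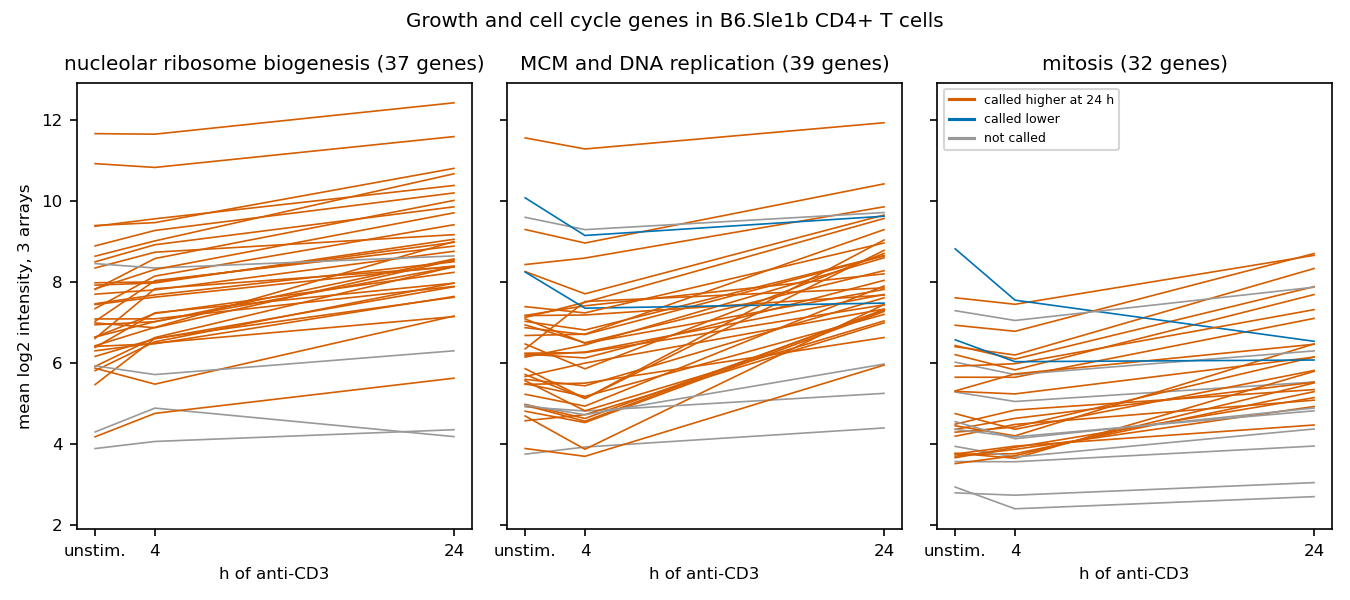
Mean log2 intensity of 3 arrays (vertical axis) for each gene of 3 lists in B6.Sle1b, against hours of anti-CD3 (horizontal axis), with 1 line per gene, orange if called higher at 24 h, blue if lower, grey if not called. Of 39 replication genes 33 are orange, of 37 nucleolar genes 33, and of 32 mitosis genes 21.

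Among cyclins, cyclin-dependent kinases and their inhibitors, 13 of 23 were called higher and 5 lower (median 0.93). Cdk4 and its partner cyclin D2 (Ccnd2), which drive cells out of G1, rose by 2.22 ± 0.16 and 1.87 ± 0.16. The 5 members called lower were brakes or are linked to arrest: the CDK inhibitors Cdkn1b, or p27 (-2.13 ± 0.15), and Cdkn1a, or p21 (-1.21 ± 0.20), the unusual cyclin Ccng2 (-2.08 ± 0.12), and the retinoblastoma family members Rbl2 (-1.58 ± 0.36) and Rb1 (-0.95 ± 0.20), the last 2 named because they complete that count. Ccnd2 had risen by 4 h, with 9.07, 9.41 and 9.32 unstimulated, 10.79, 10.81 and 10.55 at 4 h and 11.30, 11.09 and 11.02 at 24 h, and these 3 groups did not overlap.

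Of the genes for nucleolar ribosome biogenesis, Dkc1, which modifies ribosomal RNA, measured 7.99, 7.85 and 7.63 unstimulated, 8.57, 8.65 and 8.53 at 4 h and 10.12, 9.95 and 9.98 at 24 h. Its groups were fully apart, with a rise of 2.20 ± 0.10 (adjusted p = 1.22e-12). Rrp1b (2.16 ± 0.18), Nolc1 (2.07 ± 0.17), Ebna1bp2 (1.88 ± 0.17) and Fbl (1.41 ± 0.12), for the methylase fibrillarin, are genes of other nucleolar proteins and rose too. The nucleolar list had a median of 0.38 at 4 h, and 32 of 37 members were called higher between 4 h and 24 h.

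Transcripts for proteins of the finished cytosolic ribosome did not move in this way. Of 41 such genes 36 were not called, 2 were called higher and 3 lower, and all 41 differences lay between -0.27 and 0.55, with a median of -0.0023 that was 0.21 under scaling to the 75th percentile. Rpl14 was one of the higher genes (0.55 ± 0.15, adjusted p = 0.00734) and Rps19 one of the lower (-0.27 ± 0.08, adjusted p = 0.0114). Rps2 (0.38 ± 0.09), Rps16 (-0.22 ± 0.07) and Rpl19 (-0.22 ± 0.07) completed the called genes. With strain and replicate number as a fixed block, Rps16 and Rpl19 were not called (adjusted p = 0.0625 and 0.0704).

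Of 17 aminoacyl-tRNA synthetases, which load amino acids onto tRNA, 15 were called higher (median 1.07), among them Wars (1.89 ± 0.17), which also responds to interferon gamma, and Kars (1.71 ± 0.16). The ATF4-type motif TGATGNA was in 4 of 11 of their promoters (36.4%, against 10.3% of all). Eprs was the 1 called lower (-0.72 ± 0.13, named for that reason). Of 18 translation initiation factors, 11 were called higher and 2 lower (median 0.61), and Eif5a, which helps ribosomes over difficult peptide bonds, rose by 1.39 ± 0.15. The 2 called lower were the cap-binding factor Eif4e (-0.60 ± 0.13) and Eif5 (-0.37 ± 0.12). Of 34 proteasome subunits 31 were called higher and none lower (median 0.86), among them Psma6 (0.96 ± 0.09) of the core ring and the immunoproteasome subunit Psmb8 (1.44 ± 0.10). Of 22 chaperones 17 were called higher, with the smallest p-values for the cofactor Dnajc2 (1.26 ± 0.10) and the chaperonin subunit genes Cct7 (1.33 ± 0.10), Cct6a (1.25 ± 0.11) and Cct3 (1.12 ± 0.09), whereas Hspa1b and Dnajb1 were called lower. Dnajb1 (-0.31 ± 0.09) is named because it completes that count.

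Transcripts for glycolysis rose late. Hk2, the hexokinase that commits glucose to glycolysis, measured 5.34, 5.26 and 4.59 unstimulated, 5.30, 5.50 and 5.15 at 4 h and 8.69, 8.16 and 8.06 at 24 h. Tpi1, triose phosphate isomerase, measured 7.74, 6.83 and 7.35, then 7.44, 7.13 and 7.45, and then 10.99, 10.33 and 10.66. In both, the first 2 groups overlapped and the 24 h arrays stood apart, with rises of 3.24 ± 0.27 (adjusted p = 4.44e-09) and 3.35 ± 0.21 (adjusted p = 7.67e-11). Of the 18 glycolysis genes 15 were called higher, 1 lower and 14 higher between 4 h and 24 h, and the list medians were 0.01 at 4 h and 1.24 at 24 h. Aldoa (1.91 ± 0.15), Pkm (1.88 ± 0.14) and Pgk1 (1.80 ± 0.13) rose, while Ldhb (-0.32 ± 0.12, adjusted p = 0.0490), the heart-type lactate dehydrogenase chain, was the 1 called lower and is named for that reason.

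Mitochondrial genes rose by smaller amounts. Of 31 mitochondrial ribosomal proteins 26 were called higher and none lower (median 0.98, Mrpl12 1.89 ± 0.18), and of 36 respiratory chain and ATP synthase genes 24 were called higher and none lower (median 0.59, Ndufab1 1.46 ± 0.12). Citrate cycle enzymes had 11 of 18 called higher and 2 lower (median 0.64). Fh1, the fumarase, rose by 1.31 ± 0.12, whereas the cytosolic isoforms Idh1 (-0.74 ± 0.17) and Mdh1 (-0.53 ± 0.12), named because they were the 2 called lower, opposed their mitochondrial relatives Idh2 (1.41 ± 0.24) and Mdh2 (0.70 ± 0.12).

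The list of serine, one-carbon and ATF4 genes had 9 of 18 called higher and 1 lower, the stress factor Ddit3 (-0.47 ± 0.10). The list's median was 0.57. Shmt2 measured 5.65, 5.51 and 4.66 unstimulated, 6.19, 6.11 and 5.01 at 4 h and 8.27, 7.85 and 7.59 at 24 h. This enzyme feeds serine carbon into mitochondrial folate, its 24 h arrays were above all others, and it rose by 2.63 ± 0.28 (adjusted p = 2.03e-07). The serine synthesis enzymes Psat1 and Psph rose by 2.51 ± 0.18 and 2.11 ± 0.16, and the folate enzymes Mthfd1 and Mthfd1l by 2.52 ± 0.27 and 1.65 ± 0.24. The TGATGNA motif was in 6 of 16 of the list's promoters (37.5%, against 10.3% of all), but ATF4 genes were put in the list by choice. The matches were in Asns (0.33), Atf5 (0.24), Trib3 (0.38), Chac1 (0.10), Aldh18a1 (0.68) and Gpt2 (0.41). None was in the serine and folate enzymes named above. Of 18 cholesterol synthesis genes 10 were called higher and 3 lower (median 0.50), with rises of Idi1 (2.18 ± 0.12), Mvd (1.66 ± 0.18), Fdps (1.47 ± 0.17), Fdft1 (1.06 ± 0.12) and Nsdhl (0.96 ± 0.13). The 3 called lower were Insig1, the sterol sensor that holds the pathway back (-0.60 ± 0.11), and the enzymes Hmgcs1 (-0.54 ± 0.20) and Sc5d (-0.41 ± 0.14). The sterol motif TCACNCC was in 3 of 15 of the cholesterol list's promoters (20.0%), beside 18.8% of all. These were Hmgcs1, Msmo1 (0.49) and Srebf2 (0.46), and none of the cholesterol genes named above as rising. Amino acid and lactate transporters had 5 of 13 called higher and 2 lower. The 2 called lower were Slc38a2 (-1.35 ± 0.14) and Slc3a2 (-1.14 ± 0.26), the heavy chain that brings several amino acid carriers to the membrane.

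**Figure D3:**
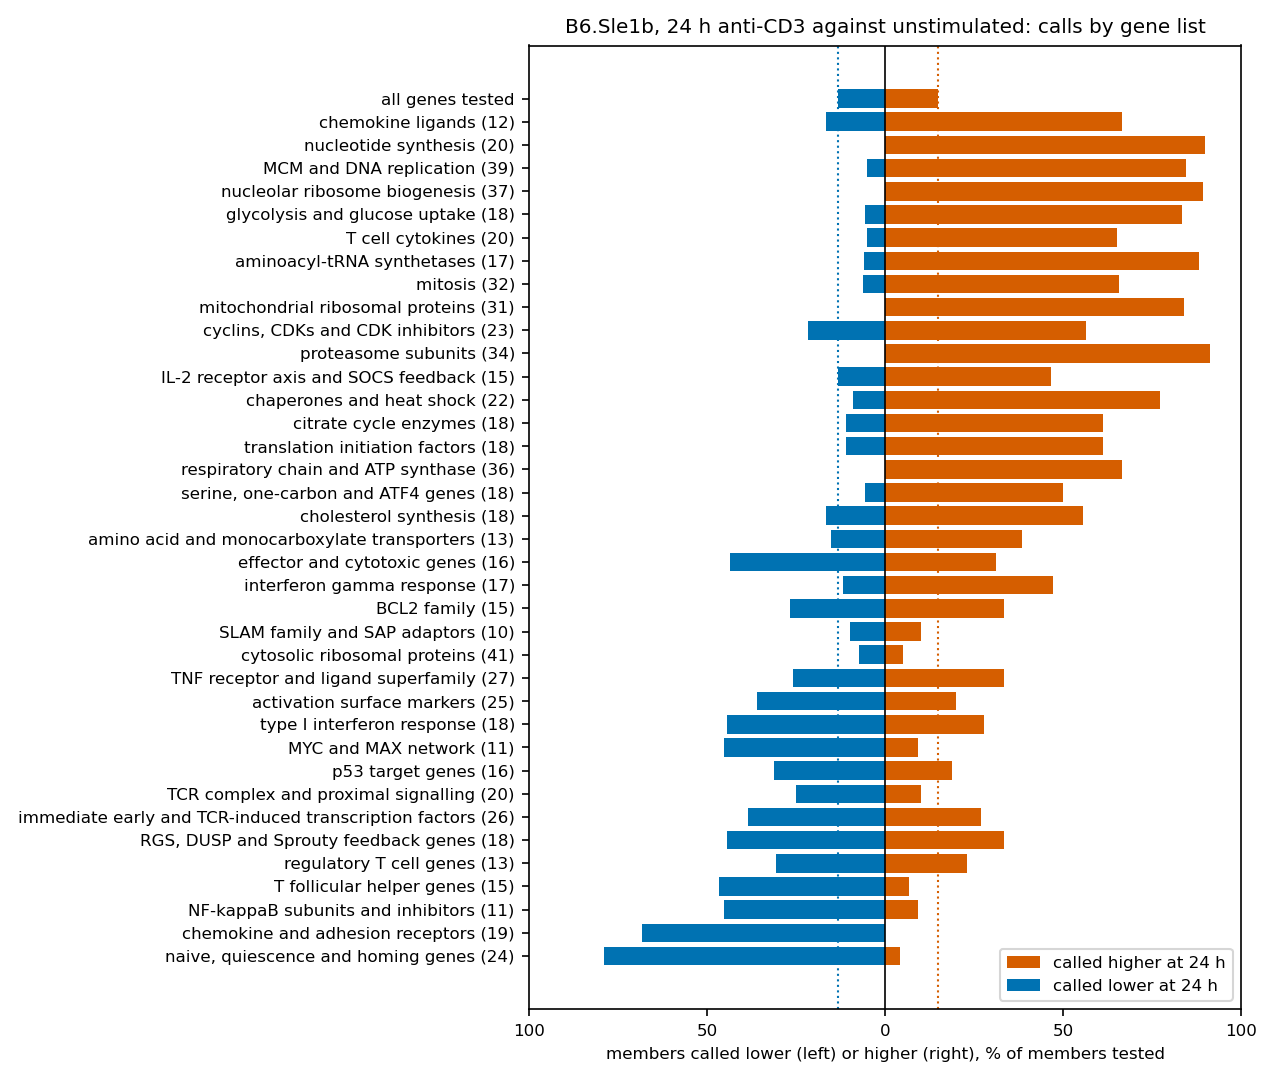
Percent of the tested members of each list (number in brackets) called higher (orange, right) or lower (blue, left) at 24 h in B6.Sle1b, ordered by median difference, with all genes at the top and as dotted lines (14.8% and 13.4%). Growth, replication and chemokine lists fill the upper right, and naive and receptor lists the lower left, down to 19 of 24 naive, quiescence and homing genes called lower.

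Secreted signals were mixed in timing. Of 20 cytokine genes 13 were called higher and 1 lower (median 1.15). Il2, the growth factor of T cells, measured 4.19, 5.34 and 3.99 unstimulated, 6.55, 6.60 and 5.89 at 4 h and 8.29, 8.18 and 7.41 at 24 h. The 3 groups did not overlap, and the rise was 3.45 ± 0.36 (adjusted p = 1.3e-07). Lta, encoding lymphotoxin alpha, and Csf2, a growth factor of myeloid cells, rose by 3.58 ± 0.21 and 3.45 ± 0.30. Ifng measured 6.85, 6.87 and 7.68, then 8.19, 8.15 and 7.73, and then 10.70, 9.89 and 9.46, a rise of 2.88 ± 0.30 (adjusted p = 1.18e-07) to arrays all above the earlier ones. Il10, an inhibitory cytokine, was the 1 called lower: 6.48, 6.93 and 6.46 became 5.23, 5.15 and 5.24 at 4 h and 4.80, 4.30 and 3.79 at 24 h, a fall of 2.33 ± 0.29 (-2.33, adjusted p = 1.7e-06) with no overlap.

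The chemokine ligand list had 8 of 12 members called higher and 2 lower, with a median of 2.77 at 24 h and 0.22 at 4 h. Ccl22 and Cxcl9 are also made by dendritic cells and macrophages, whose marker sums are given above. Ccl5, a product of memory and cytotoxic T cells, was among the 2 lower genes, with 10.35, 10.84 and 10.58 unstimulated, 9.95, 10.45 and 10.52 at 4 h and 7.01, 7.41 and 7.34 at 24 h. Its 4 h arrays overlapped the unstimulated ones, and it fell by 3.34 ± 0.37 (-3.34, adjusted p = 2.52e-07). Cxcl10, an interferon-induced ligand of CXCR3 named as the other, differed by -3.09 ± 0.46, the opposite direction to Cxcl9.

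In the interleukin-2 receptor axis 7 of 15 genes were called higher and 2 lower (median 0.78). Il2ra, the high-affinity chain, measured 4.83, 5.17 and 4.12 unstimulated, 7.44, 7.11 and 6.75 at 4 h and 8.73, 8.18 and 8.15 at 24 h, and rose by 3.65 ± 0.26 (adjusted p = 3.9e-10) through groups that did not overlap. The cytokine signalling inhibitors Socs1 and Cish rose by 2.34 ± 0.25 and 1.39 ± 0.17. Socs1 stood higher at 4 h, with 8.61, 8.69 and 8.39, than at 24 h, with 7.85, 7.48 and 7.47 (difference -0.96 ± 0.25, adjusted p = 0.00614). Il15ra rose by 1.99 ± 0.17. The 2 called lower transmit the signal: the transcription factor Stat5b (-1.58 ± 0.26) and the kinase Jak1 (-1.20 ± 0.16).

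Effector genes went both ways, with 5 of 16 called higher and 7 lower (median 0.41). Beside Gzmb, Eomes, a transcription factor of cytotoxic and memory cells, measured 6.99, 6.75 and 6.22 unstimulated and 8.40, 8.83 and 8.69 at 24 h, a rise of 1.99 ± 0.27 (adjusted p = 5.68e-06) without overlap. Eomes is also an NK cell marker, and the other 3 NK markers, Ncr1, Klrb1c and Klra8, differed by 0.37, -0.48 and -0.17 and were not called. With the fixed block Ncr1 was called (adjusted p = 0.0425). Serpinb9, which inhibits granzyme B, rose by 0.84 ± 0.12. Fasl, the ligand that kills through Fas, measured 8.67, 8.94 and 9.15 unstimulated and 6.61, 6.82 and 5.50 at 24 h, a fall of 2.61 ± 0.26 (-2.61, adjusted p = 4.77e-08), again without overlap.

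Transcription factors that T cell receptor signals induce did not share a direction. Of 26 members 7 were called higher, 10 lower and 9 neither (median -0.27 at 24 h and 0.29 at 4 h), and between 4 h and 24 h 12 were called lower and 2 higher (11.1% and 13.1% of all genes). Myc, which drives growth genes, measured 7.41, 7.85 and 7.17 unstimulated, 9.86, 10.003 and 9.26 at 4 h and 10.17, 10.21 and 9.98 at 24 h. The later groups overlapped each other and were both above the first, with a rise of 2.65 ± 0.25 (adjusted p = 2.87e-08). Batf3, a partner of AP-1 factors, measured 3.51, 2.98 and 3.59, then 3.43, 3.18 and 3.25, and then 6.14, 5.07 and 5.87, and rose by 2.33 ± 0.22 (adjusted p = 3.1e-08) after 4 h.

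Fos, the prototype AP-1 subunit, measured 8.72, 9.47 and 8.70 unstimulated, 8.52, 8.74 and 8.39 at 4 h and 5.65, 5.81 and 5.16 at 24 h. Fosl2 measured 10.30, 10.52 and 9.62, then 9.88, 9.90 and 9.14, and then 6.79, 6.19 and 5.61. For both, the 4 h arrays overlapped the unstimulated arrays and the 24 h arrays were far below, by -3.43 ± 0.27 (adjusted p = 2.32e-09) and -3.95 ± 0.37 (adjusted p = 2.49e-08). Ikzf2, or Helios, fell by 1.73 ± 0.16 (-1.73).

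Most genes of the MYC network did not rise with Myc. In the 11-gene MYC and MAX network Myc was the 1 gene called higher, 5 were called lower and the median was -0.22. Mxd4, a repressor that competes for MAX, measured 8.95, 8.84 and 8.44 unstimulated, 7.14, 7.06 and 6.59 at 4 h and 5.12, 5.34 and 5.40 at 24 h. Its groups stepped down without overlap, by 3.46 ± 0.20 (-3.46, adjusted p = 1.72e-11), or by -2.24 with its probe sets averaged. Mxi1 (-2.48 ± 0.17), Mxd1 (-1.50 ± 0.28) and Mnt (-0.90 ± 0.23) are also MAX-binding repressors and were called lower.

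Of 11 NF-kappaB subunits and inhibitors 5 were called lower and 1 higher (median -0.71 at 24 h, 0.21 at 4 h). Rel, the subunit c-Rel, measured 7.53, 8.20 and 7.79 unstimulated, 8.01, 8.22 and 7.93 at 4 h and 6.06, 6.11 and 5.35 at 24 h, a fall of 2.002 ± 0.22 (-2.002, adjusted p = 1.86e-07) after overlapping earlier groups. The other 4 called lower restrain or modulate the pathway: Tnfaip3, or A20, fell by 3.07 ± 0.14 (-3.07), Nfkbiz by 1.97 ± 0.23 (-1.97), Nfkbid by 1.82 ± 0.30 (-1.82) and Nfkbia by 0.86 ± 0.11 (-0.86). Bcl3, an atypical inhibitor, was the 1 called higher (1.10 ± 0.33). No member was called higher between 4 h and 24 h and 6 were called lower.

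Interferon genes showed a similar division. Of 18 type I interferon response genes 8 were called lower and 5 (Usp18, Oas2, Xaf1, Zbp1 and Oas3) higher at 24 h, with a median of -0.21 at 24 h and 0.87 at 4 h, and 15 of 18 were called lower between 4 h and 24 h. Rsad2 measured 8.35, 9.01 and 9.16 unstimulated, 8.07, 8.38 and 9.16 at 4 h and 4.90, 4.39 and 5.50 at 24 h. Ifit1, which binds foreign RNA, measured 9.58, 10.33 and 11.51, then 9.60, 9.86 and 11.05, and then 6.95, 7.16 and 7.56. In both genes the first 2 groups overlapped, replicate 3 was the highest array of each group, and the 24 h arrays lay below all others. The falls were -3.91 ± 0.42 (adjusted p = 1.72e-07) and -3.25 ± 0.57 (adjusted p = 0.000103). Ifih1, the RNA sensor MDA5, and Oasl1 fell by 3.35 ± 0.56 (-3.35) and 3.003 ± 0.43 (-3.003), and Irf9 of the interferon signalling complex by 0.94 ± 0.16 (-0.94).

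Genes that respond to interferon gamma had 8 of 17 called higher and 2 lower, with medians of 1.05 at 4 h and 0.33 at 24 h. Gbp2, a GTPase of cell-autonomous defence, measured 9.36, 9.62 and 10.08 unstimulated, 12.34, 12.36 and 12.56 at 4 h and 11.86, 12.14 and 12.15 at 24 h. Both activated groups were above the unstimulated one, the 24 h arrays were a little lower than the 4 h arrays without a call for that step, and the 24 h rise was 2.36 ± 0.16 (adjusted p = 1.91e-10). The immunoproteasome gene Psmb9 rose by 1.28 ± 0.13.

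**Figure D4:**
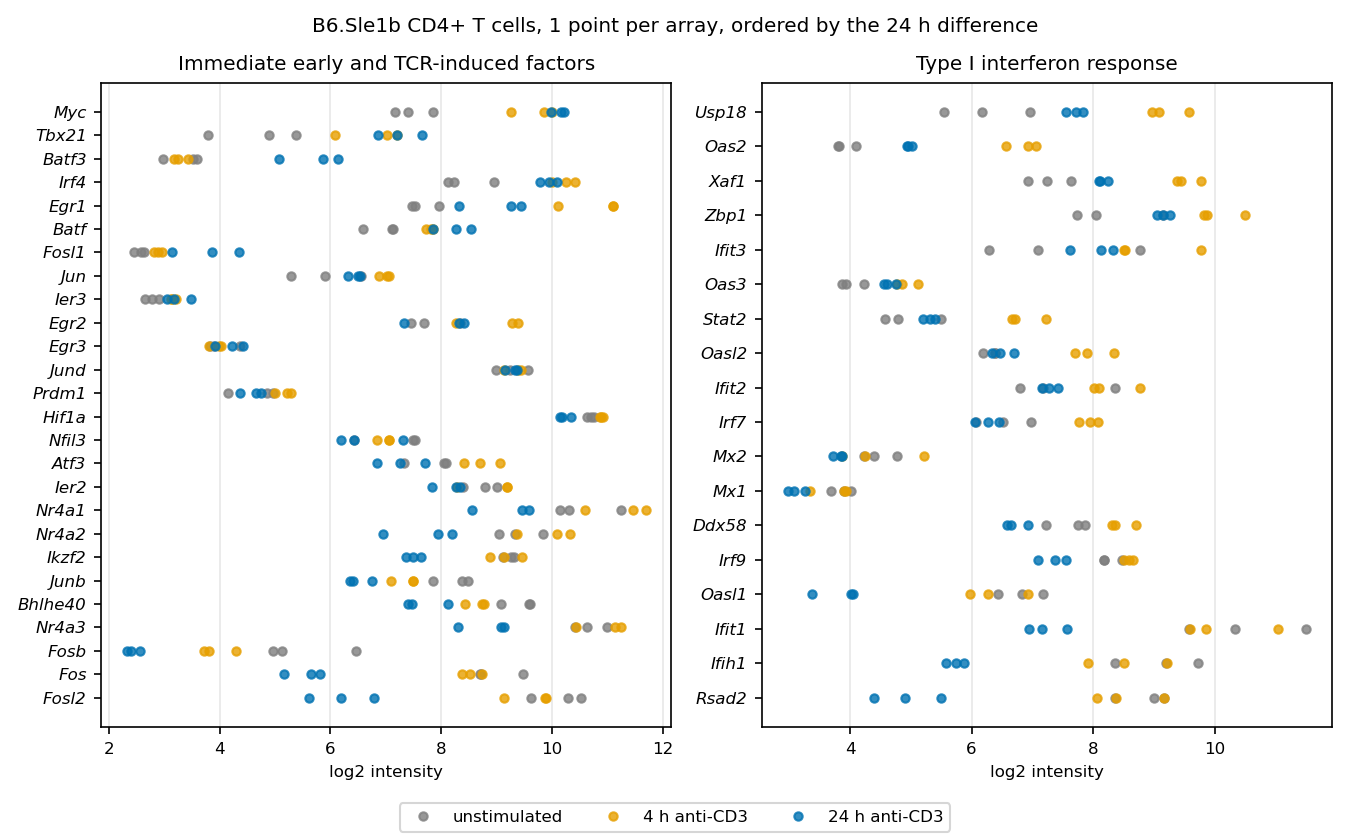
Log2 intensity on each array (horizontal axis, 1 point per array) for 26 immediate early and receptor-induced transcription factors (left) and 18 type I interferon response genes (right) in B6.Sle1b, ordered by the 24 h difference, with unstimulated, 4 h and 24 h arrays in grey, orange and blue. Blue points lie left of orange ones for most interferon genes, 15 of which were called lower between 4 h and 24 h, and Fos and Fosl2 end far left of their grey points.

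Genes of resting and recirculating T cells fell. Of 24 naive, quiescence and homing genes 19 were called lower, 1 higher and 4 neither (median -1.66, against 0.07 over all genes). S1pr1, the receptor that lets T cells leave lymphoid tissue, measured 9.62, 9.92 and 9.30 unstimulated, 8.14, 8.48 and 8.27 at 4 h and 6.76, 6.91 and 6.98 at 24 h, a fall of 2.74 ± 0.18 (-2.74, adjusted p = 1.17e-10) in steps without overlap. Tob1, an antiproliferative protein, Klf6, a zinc finger factor, and Rgs10, a brake on G protein signals, fell by 2.75 ± 0.17 (-2.75; -1.46 with its probe sets averaged), 2.31 ± 0.13 (-2.31) and 1.71 ± 0.11 (-1.71). The 1 gene called higher was Bach2, a repressor of effector genes (0.74 ± 0.25, adjusted p = 0.0259, named for that reason), which stood higher still at 4 h, with 9.71, 9.80 and 9.36 against 8.86, 9.13 and 8.70.

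Of 19 chemokine and adhesion receptors 13 were called lower and none higher (median -0.79). Cxcr6, a receptor of effector and memory cells, measured 8.65, 8.41 and 9.21 unstimulated, 9.12, 9.16 and 9.45 at 4 h and 6.92, 6.62 and 6.40 at 24 h, a fall of 2.11 ± 0.20 (-2.11, adjusted p = 3.09e-08) below every earlier array. The gut-homing receptor Ccr9, the monocyte and T cell receptor Ccr2, and S1pr4 fell by 1.55 ± 0.19 (-1.55), 1.42 ± 0.24 (-1.42) and 0.98 ± 0.17 (-0.98).

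Surface markers of activation and costimulation did not share a direction: 5 of 25 were called higher and 9 lower (20% and 36%, beside 14.8% and 13.4% of all genes). Their median was -0.09, or 0.12 under scaling to the 75th percentile. Tfrc, the transferrin receptor that brings in iron, measured 8.29, 7.81 and 8.16 unstimulated, 8.67, 8.24 and 8.83 at 4 h and 10.19, 10.13 and 10.01 at 24 h, a rise of 2.02 ± 0.18 (adjusted p = 1.68e-08) to arrays above all others. Cd200 rose by 1.63 ± 0.13. Ctla4, the inhibitory receptor, measured 10.07, 10.29 and 9.98 unstimulated, 9.32, 9.28 and 9.48 at 4 h and 7.90, 7.62 and 7.30 at 24 h, and fell by 2.51 ± 0.14 (-2.51, adjusted p = 1.83e-11) in steps without overlap. The costimulatory receptors Icos and Cd28 fell by 1.80 ± 0.10 (-1.80) and 1.002 ± 0.15 (-1.002).

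Follicular helper genes had 7 of 15 called lower and 1 higher (46.7% and 6.7%, median -0.59). Regulatory T cell genes had 4 of 13 called lower and 3 higher (30.8% and 23.1%, median -0.42). The shares of all genes were 13.4% and 14.8%. Bcl6, the factor that defines follicular helper cells, measured 8.65, 8.54 and 7.90 unstimulated, 8.11, 7.90 and 7.14 at 4 h and 4.48, 5.54 and 4.51 at 24 h. The 24 h arrays were far below the other groups, which overlapped, and the fall was 3.52 ± 0.35 (-3.52, adjusted p = 6.1e-08). Sostdc1 fell by 2.26 ± 0.24 (-2.26) and Nt5e, the ectoenzyme CD73, by 2.18 ± 0.16 (-2.18; -0.90 with its probe sets averaged), while Ebi3, a cytokine chain, rose by 1.76 ± 0.28. Lists overlapped: Il2ra, Ctla4, Icos and Cd200 each stood in more than 1.

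The receptor's own machinery had 2 of 20 genes called higher and 5 lower (10% and 25%, beside 14.8% and 13.4% of all genes). The list's median was -0.26. Lcp2, the adaptor SLP-76, measured 8.83, 8.89 and 8.72 unstimulated, 10.55, 10.60 and 10.07 at 4 h and 9.84, 9.85 and 9.55 at 24 h, so that it peaked at 4 h and was still 0.93 ± 0.15 higher at 24 h (adjusted p = 5.07e-05). The other called higher was the kinase gene Prkcq (0.48 ± 0.17). Grap2, or Gads, the binding partner of SLP-76, fell by 2.22 ± 0.21 (-2.22) and Cblb, a ligase that restrains receptor signals, by 1.34 ± 0.23 (-1.34). Among BCL2 family genes 5 of 15 were called higher and 4 lower (33.3% and 26.7%, beside 14.8% and 13.4% of all genes). The survival genes Bcl2l1 and Bcl2 rose by 2.25 ± 0.15 and 1.41 ± 0.20, Bcl2l1 by 0.61 with its 4 probe sets averaged, and the death-promoting Bcl2l11, or Bim, fell by 1.47 ± 0.23 (-1.47). Bid, which links death receptors to mitochondria, rose by 1.68 ± 0.23.

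The SLAM family and its adaptors, which the Sle1b stretch concerns, were called about as often as all genes. Of 10 genes 1 was called higher, 1 lower and 8 neither, beside 14.8% higher and 13.4% lower over all genes. Their median was 0.06, or -0.0016 after a repeated quantile normalization. Sh2d1a, the adaptor SAP that SLAM receptors signal through, measured 9.001, 8.62 and 9.27 unstimulated, 8.75, 8.67 and 8.92 at 4 h and 6.83, 7.12 and 6.98 at 24 h. All 24 h arrays were below both earlier groups, a fall of 1.98 ± 0.16 (-1.98, adjusted p = 2.62e-09). Ly9 measured 5.05, 5.24 and 5.17 unstimulated and 6.03, 6.23 and 5.67 at 24 h, a rise of 0.83 ± 0.23 (adjusted p = 0.00741) without overlap. Slamf6 measured 8.38, 8.68 and 8.15 unstimulated, 8.65, 8.20 and 8.62 at 4 h and 7.93, 8.28 and 7.82 at 24 h. These arrays overlapped, and its difference of -0.39 ± 0.17 was not called (adjusted p = 0.0875). Over 21 alternatives its difference ran from -0.53 to -0.18, and it was called lower in 3 of them. Of its other probe sets, 1 measured 6.41, 6.53 and 6.71 and then 6.40, 6.53 and 6.13 without a call, and the last was at background. Slamf1 differed by -0.48 ± 0.19 (adjusted p = 0.0689, or 0.0467 with strain and number as a random block), the kinase gene Fyn by -0.47 ± 0.24 and Cd84 by 0.14 ± 0.19, none of them called. A second Fyn probe set measured 9.02, 9.04 and 8.32 and then 8.18, 8.18 and 7.87, and was called lower in the fit of all probe sets (-0.72 ± 0.22, adjusted p = 0.0173). Slamf9, Sh2d1b1, Cd244a and Slamf8 differed by 0.05 to 0.43, were not called, and lay at or close to background.

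Whether the response was particular to B6.Sle1b was tested against the responses of the other strains, which have arrays of their own. All 30 leading genes were called in the same direction in C57BL/6, where 15.7% of all genes were called higher and 8.6% lower, and all 30 in Sle1b.BAC, where 17.2% and 11.9% were. Over all genes, 2119 were called higher in both B6.Sle1b and C57BL/6, which is 83.8% of the B6.Sle1b list and 78.8% of the C57BL/6 list. The 1380 genes called lower in both made up 60.3% of the B6.Sle1b list and 93.9% of the shorter C57BL/6 list, which rests on 2 arrays at 24 h. With Sle1b.BAC the shared higher genes numbered 2195 (86.8% and 74.8%) and the shared lower genes 1725 (75.3% and 84.6%).

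The difference between the responses of B6.Sle1b and C57BL/6 was called for 0 of the 17097 genes (0%) by limma, with 821 at an unadjusted p under 0.05 and a smallest adjusted p of 0.41. Against Sle1b.BAC 1 gene was called (0.00585%), with 873 at an unadjusted p under 0.05. That gene was Stfa3, a stefin of neutrophils that inhibits cysteine proteases. It measured 4.74, 3.78 and 5.39 in unstimulated B6.Sle1b cells, 2.99, 2.67 and 2.83 at 4 h and 2.25, 1.83 and 2.15 at 24 h, at background, with a fall of at least 3.10-fold and no overlap. In Sle1b.BAC its mean was at background at both times (2.07 and 1.89). The fitted difference between the responses, -2.39 ± 0.37 (adjusted p = 0.0320), therefore rests on values under background in 3 of the 4 groups and is not an exact size. That call was made in 12 of 26 alternatives, with adjusted p from 1.13e-05 to 0.9998. Of the 12 fits that left out 1 array, it was made without replicate 2 or replicate 3 of unstimulated B6.Sle1b (adjusted p = 3.78e-05 and 0.0330) and in no other. Padi4 and Mmp9 were the other neutrophil markers called lower in B6.Sle1b at 24 h, and the list's summed intensity is given above.

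Against C57BL/6 the smallest p-values, none called, belonged to Stfa3 (fitted difference of responses -2.01, also with group means at background), Chchd5 (response -0.34 in B6.Sle1b, 0.72 in C57BL/6) and Dnajc12 (-2.12 and -1.20) in 1 direction. In the other they belonged to Procr (whose unstimulated B6.Sle1b mean was at background), Ttbk1 (0.27 and -0.30) and 1810046K07Rik, which was at background in both B6.Sle1b groups. Stfa3 was called with strain and number as a fixed block (difference -2.16, adjusted p = 0.0330). The response of Rsad2 was -3.91 in B6.Sle1b, -1.62 in C57BL/6 and -2.03 in Sle1b.BAC, but the differences of -2.29 ± 0.63 and -1.89 ± 0.59 were not called (adjusted p = 0.715 and 0.756). Pmaip1 likewise stood at -3.99, -2.49 and -3.14, with adjusted p of 0.584 and 0.934 for the differences. Some list medians at 24 h differed between the strains, which was not tested. In B6.Sle1b, C57BL/6 and Sle1b.BAC the type I interferon median was -0.21, 0.45 and 0.32. That of receptor-induced factors was -0.27, 0.16 and 0.20, and that of follicular helper genes -0.59, -0.03 and -0.20. Others were closer, such as nucleolar ribosome biogenesis (1.36, 1.39 and 1.47). No member of these lists was called for a strain difference. The plot of the leading genes in the 3 strains shows the responses side by side.

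**Figure D5:**
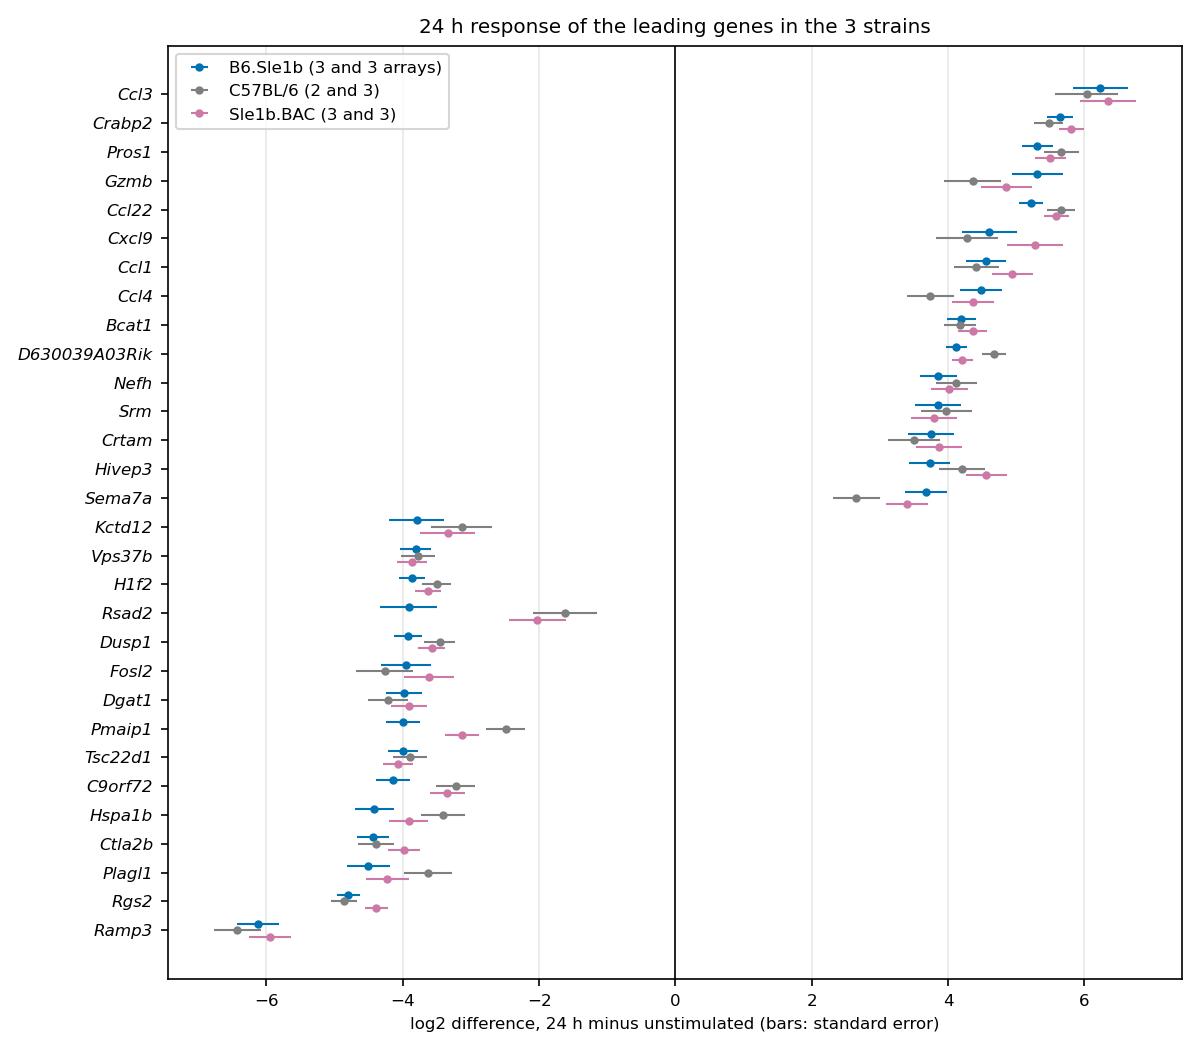
Log2 difference between 24 h and unstimulated cells (horizontal axis, bars: standard error) for the 15 largest rises and 15 largest falls of B6.Sle1b (blue), with the same genes in C57BL/6 (grey) and Sle1b.BAC (pink). All 3 strains share the direction of every gene, and Rsad2 has its points furthest apart, at -3.91, -1.62 and -2.03.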

How the data were processed

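The deposited values are linear intensities, summarised by the authors with RMA per the submitters' processing notes, whose version is not given in the sources used here. The log2 of each intensity was taken. Probe sets with 1 gene symbol in the platform annotation were kept, 1 per gene (the highest mean over 26 arrays), which left 17097 genes. One limma 3.58.1 fit in R 4.3.3 covered the 26 biological arrays in 9 groups. The 2 technical arrays entered alternatives only. Calls needed a Benjamini-Hochberg adjusted p under 0.05. A gene was at background where its group mean lay at or under the mean 95th percentile of the non-specific control probe sets. The number of arrays limits precision, and the files used here give no scan date or slide. Same-numbered unstimulated and 24 h arrays of B6.Sle1b deviated together from their group means (correlations 0.245, 0.409 and 0.377 over 5157 genes). The labels state no pairing, and whether these arrays shared a source or an array effect such as brightness was not tested. The main fit did not pair them, and only the alternatives with a replicate block did. Named genes were the 15 largest called rises and falls whose groups did not overlap and whose higher group was above background, the 5 list members with the smallest p in each of 47 lists, all SLAM members, and the top of each strain difference. The lists and tests were chosen with earlier results of these data known. The fit was tried on simulated data with independent noise on each array, for the 24 h response only. It called 28.4% of changes of 0.5 on the log2 scale, 80.6% of changes of 1 and 100% of changes of 2. The strain differences were not simulated. Promoters came from RefSeq, GRCm38.p6. Alternatives covered scaling, probe sets, filters, weights, blocks and left-out arrays.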

Additional observations from a re-analysis of the deposited data

Results flagged for a closer look

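Stfa3, a neutrophil stefin, was the 1 gene whose 24 h response differed by a test between B6.Sle1b and Sle1b.BAC, with a fitted difference of -2.39 on the log2 scale (limma adjusted p = 0.0320). The means of Sle1b.BAC at both times and of B6.Sle1b at 24 h were at background, so this value is not an exact size, and the call was made in 12 of 26 alternatives. Its 3 unstimulated B6.Sle1b arrays measured 4.74, 3.78 and 5.39, against a mean of 2.07 in unstimulated Sle1b.BAC cells and 2.46 in C57BL/6 cells, and all 24 h means were low. The summed intensity of the 12 neutrophil markers was 362, 658 and 174 on the same unstimulated B6.Sle1b arrays, in that order. On the unstimulated Sle1b.BAC arrays it was 183, 480 and 847. The part of neutrophil content in the difference was not tested. The groups hold 3 arrays or fewer, so no single array was tested for standing apart.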

How the results depend on the processing

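Of 203 named genes called at 24 h, 187 kept their call and direction under all 21 alternatives, 16 lost the call in at least 1, and none reversed. Of the 33 named genes not called, 21 were called in at least 1 alternative. A 2-fold minimum reduced the calls at 24 h to 1028 (higher) and 1088 (lower), and those against 4 h to 864 and 813. Array weights, whose estimation stopped before converging, called 4946 and 3903 at 24 h, 3511 and 2901 against 4 h, 16 and 145 for the difference from C57BL/6, and 211 and 1051 for that from Sle1b.BAC. With array brightness as a covariate the strain differences numbered 1 higher and 4 lower against C57BL/6 and 2 and 5 against Sle1b.BAC. With strain and number as a fixed replicate block they numbered 1 and 1 against C57BL/6 and 2 lower against Sle1b.BAC. No gene was called against Sle1b.BAC when only the groups compared were fitted, quantile normalization was repeated, or arrays were scaled to the 75th percentile. Keeping replicates 1 and 2 of B6.Sle1b (chosen after seeing the data, as was the fixed block) also left 0. The cause was not tested. Leaving out 1 array gave 2122 to 2745 higher genes at 24 h and 1818 (without unstimulated replicate 2) to 2817 lower, 1800 to 2059 and 1475 to 1836 against 4 h, 0 to 0 higher and 0 to 1 lower against C57BL/6, and 0 to 0 and 0 to 2 against Sle1b.BAC.

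The fixed block also lost the call of Ttbk1 (adjusted p = 0.0586) and changed no other call of a named gene at 24 h beyond those given in the text. Averaging all probe sets of a gene moved 41 of the 203 called named genes by over 1.5 times on the log2 scale, each towards 0. Of 1974 recomputed list counts, 1778 stayed within 1.5 times. Among 403 list genes with several probe sets, 9 had another probe set called in the opposite direction: Ccnd3, Cd44, Cox5b, Dnaja1, Eif2s2, Farsb, Rbl1, Rpl22 and Sdha. Genes near background, 5220 of which were at background in both groups, could show only a bound.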

Other observations

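Feedback inhibitors of receptor signalling were divided. Of 18 RGS, DUSP and Sprouty genes 8 were called lower and 6 higher (median -0.34). Dusp10, a phosphatase of stress kinases, fell by 1.96 ± 0.13 (-1.96), Dusp4 by 2.14 ± 0.31 (-2.14) and the G protein regulators Rgs2 and Rgs10 with them, while Rgs16 (1.88 ± 0.46) and the ERK pathway inhibitors Spry1 (1.33 ± 0.42) and Dusp6 (1.05 ± 0.27), named after their values were seen, were called higher.

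In the TNF ligand and receptor superfamily 9 of 27 genes were called higher and 7 lower, with a median of -0.06 that was 0.15 under scaling to the 75th percentile. Tnfrsf1b, the TNF receptor of activated lymphocytes, fell by 2.46 ± 0.26 (-2.46) and the adaptor Traf1 by 1.70 ± 0.17 (-1.70). Of 16 p53 target genes 5 were called lower and 3 higher (31.25% and 18.75%, beside 13.4% and 14.8% of all genes). Trp53inp1 and Sesn1, which respond to stress, fell by 1.84 ± 0.14 (-1.84) and 1.56 ± 0.17 (-1.56), and the nuclease gene Aen rose by 1.36 ± 0.17.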
